A study of Homo sapiens with 12 samples.

Results

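HBII-52 is the older name of SNORD115, a box C/D small nucleolar RNA (snoRNA) that lies in many copies side by side on chromosome 15. The copies described here were chosen by name, as the snoRNAs whose name begins with HBII-52, and with earlier results of these data known, so all their values are a description without a test. They numbered 41 of the 1380 noncoding RNAs listed in either of 2 tables and 41 of 289 snoRNAs. The table without LPS listed 40 of the copies among 1231 noncoding RNAs, and the table with LPS listed 41 among 1139.

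The study sequenced small noncoding RNA of Mono Mac 6 (MM6) cells, an established human monocytic line, to see what loss of 5-lipoxygenase (5-LO), the enzyme that starts leukotriene synthesis, does to microRNAs. There were 12 libraries in 4 groups of 3, namely wild-type cells and 5-LO knockout (5-LOΔ) cells, each without and with lipopolysaccharide (LPS). Cells of every group were differentiated for 72 h in calcitriol (50 nM) together with TGF-β (1 ng/mL), and the LPS groups also received 1 µg/mL LPS for 6 h. The knockout was made with lentiviral CRISPR/Cas9 and carried in single-cell clones, whereas no cloning of the wild-type cells is described, so genotype and clonal origin cannot be told apart. The labels do not say which clone a library came from. The mRNA of ALOX5, the targeted gene, was not analysed here, so the genotype labels were not checked against it.

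Each value is the authors' mean of normalized reads over the 3 libraries of a group, given without a spread or a value per library. The means of all noncoding RNAs summed to 10757419 in wild-type cells, 12142907 in 5-LOΔ cells, 9680900 in wild-type cells with LPS and 10165615 in 5-LOΔ cells with LPS. Intervals given here are 95% intervals of counting error, calculated from what 1 read was worth in each library. The reads carry no molecular identifiers, so these intervals leave out both amplification and the difference between cultures.

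Box C/D snoRNAs guide the methylation of ribose in other RNAs, with the bases next to box D pairing to the target. They are cut from introns of a host transcript, which for HBII-52 is SNHG14, expressed from the paternal chromosome only. HBII-52 is known mainly from neurons, where a stretch before box D is complementary to the mRNA of the serotonin receptor gene HTR2C. HBII-85 (SNORD116) is the other large snoRNA cluster of the same host, and its loss is a central feature of Prader-Willi syndrome.

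On GRCh37, 39 of the 41 copies had a position and a sequence in GENCODE, all of them on the plus strand of chr15:25415870-25515005. HBII-52-13 and HBII-52-26 had neither, so they are described by level only. All 39 lay within SNHG14 (chr15:25223730-25665483), 37 of them outside every exon of the SNHG14 transcripts that span them, and 2 overlapping an exon of 1 such transcript. The copies were 76 to 82 bases long, 34 of them 82 bases. Box C (ATGATGA or GTGATGA) was found in the first 20 bases of 38 copies, against 39.3% of 290 other annotated snoRNAs of 70 to 90 bases, and box D (CTGA) in the last 15 bases of 39 copies, against 62.8%.

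The sequences below show how abundant copies (HBII-52-17, HBII-52-32 and HBII-52-23) differ from HBII-52-9, which holds the full HTR2C stretch, and how HBII-52-37, the lowest copy above 0 in all groups, and HBII-52-48, the copy with the most differences, do. In HBII-52-9 the capitals mark the 18 bases complementary to a coding exon of HTR2C (chrX:114082685-114082702), and in the others they mark bases substituted or added against HBII-52-9. Bases of HBII-52-9 that a copy lacks leave no mark, which are 2 in HBII-52-23, both in the stretch, and 6 in HBII-52-48, outside it. All are given 5′ to 3′ from GRCh37.
HBII-52-9: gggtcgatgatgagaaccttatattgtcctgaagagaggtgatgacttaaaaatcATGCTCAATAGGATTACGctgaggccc
HBII-52-17: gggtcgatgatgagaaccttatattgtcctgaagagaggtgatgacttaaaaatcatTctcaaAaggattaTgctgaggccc
HBII-52-32: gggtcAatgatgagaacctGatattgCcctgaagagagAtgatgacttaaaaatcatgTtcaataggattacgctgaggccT
HBII-52-23: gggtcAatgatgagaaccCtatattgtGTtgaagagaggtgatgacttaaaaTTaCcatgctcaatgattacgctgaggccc
HBII-52-37: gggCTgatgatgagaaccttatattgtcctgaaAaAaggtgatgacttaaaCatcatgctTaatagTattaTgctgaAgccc
HBII-52-48: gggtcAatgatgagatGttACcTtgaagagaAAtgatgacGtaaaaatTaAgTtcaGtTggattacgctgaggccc

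The 18-base stretch was found whole in 26 of 39 copies and in 0 of the 290 other snoRNAs. HBII-52-17 carries G58T, T64A and C72T, counted from the 5′ end of HBII-52-9, and all 3 fall inside the stretch. HBII-52-32 carries C59T in the stretch and G6A just before box C. Of the 39 sequences 33 were distinct. HBII-52-17, HBII-52-18 and HBII-52-19 were identical, as were HBII-52-9 and HBII-52-12, and HBII-52-11, HBII-52-29, HBII-52-36 and HBII-52-43.

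Copies with the same sequence had the same deposited mean in all 4 groups, and no copies of different sequence did. Such copies cannot be told apart by their reads, and how the authors assigned reads that match several copies is not given in the sources used here. Different copies share long stretches too. The longest stretch that a copy shares with a copy of different sequence was 17 to 79 bases, with a median of 59 over the 39 copies, and was 57 bases between HBII-52-9 and HBII-52-17. In 8 copies, HBII-52-9 among them, every stretch of 30 bases also occurs in a copy of different sequence, so the level of a single copy is uncertain.

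Summed over the listed copies, the authors' means came to 24447 in wild-type cells, 36180 in 5-LOΔ cells, 21422 in wild-type cells with LPS and 31297 in 5-LOΔ cells with LPS. With each set of identical copies counted once, the sums were 16795, 24771, 14700 and 21622. The 2 tables were normalized separately, so levels with and without LPS stand side by side only. Since HBII-52 is known from neurons, microRNAs of both cell types were looked up in the same columns. All 6 myeloid microRNAs of the list were present, the most abundant being miR-21-5p at 2499, 3885, 2816 and 3188 in the same order of groups. Their sum was 4439, 6547, 5034 and 6036. Not all 6 were higher in 5-LOΔ cells, since miR-223-3p stood at 93.8, 74.3, 60.4 and 57.96 and miR-142-3p at 97.9, 95.2, 75.1 and 80.2. The rest, miR-21-5p, miR-155-5p, miR-142-5p and miR-146a-5p, were higher in 5-LOΔ cells both without and with LPS. Of 8 neuronal microRNAs 3 were listed, and miR-124-3p was not among them. miR-9-5p stood at 16.2, 42.3, 19.7 and 21.2, miR-9-3p at 0.80, 0, 0.39 and 0, and miR-128 at 5.88, 6.39, 7.19 and 6.12. The part that these changes in marker level have in the HBII-52 values was not tested, and in bulk RNA more cells with a transcript and more of it per cell cannot be told apart.

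Levels of the copies spanned a wide range. In wild-type cells the highest mean was 463 times the lowest above 0 and in 5-LOΔ cells with LPS 503 times. The ratio was 1780 in 5-LOΔ cells and 5130 in wild-type cells with LPS, where the lowest copy above 0 rests on 10 reads of 1 library (HBII-52-37) and on 1 read (HBII-52-25). Median copy levels were 202.1 in wild-type cells, 283.8 in 5-LOΔ cells, 179.8 in wild-type cells with LPS and 282.7 in 5-LOΔ cells with LPS. In all 4 groups 7 copies were at 1000 or more, and 6 copies were under 50 in every group that listed them.

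HBII-52-17, HBII-52-18 and HBII-52-19 were the highest, with 2917 each in wild-type cells, 4445 in 5-LOΔ cells, 2570 in wild-type cells with LPS and 3702 in 5-LOΔ cells with LPS. Together they made up 35.8% of the summed level in wild-type cells and 36.9% in 5-LOΔ cells, or 17.4% and 17.9% when identical copies were counted once. HBII-52-32 was next, with 1962, 3293, 1710 and 2504 in the same order. HBII-52-10, which differs from HBII-52-9 by 1 missing base, followed with 1452, 2096, 1287 and 1796. Per base of the copy and over the 4 groups, the means were 41.6 for HBII-52-17, 28.9 for HBII-52-32 and 20.5 for HBII-52-10. Only 2 of the 39 copies with a length changed place in the order of levels when length was taken into account. Among distinct sequences ordered by level per base in wild-type cells, 11 of 31 pairs of neighbours had counting intervals that did not tell them apart, most of them among the lower copies.

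**Figure D1:**
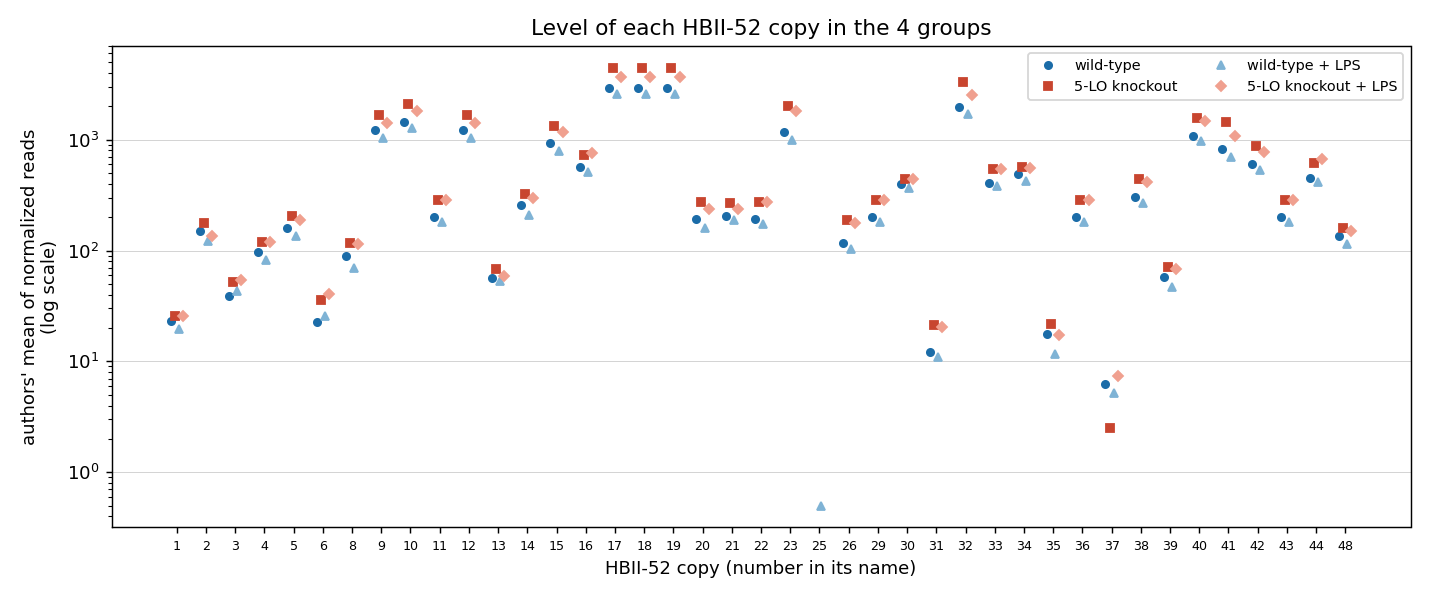
The authors' mean of normalized reads of each HBII-52 copy on a log axis, by the number in its name and in order of that number, with 1 symbol for each of the 4 groups. HBII-52-17, HBII-52-18 and HBII-52-19 are highest, and HBII-52-25 has a value above 0 only in wild-type cells with LPS.

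Copies numbered 1 to 8 were low, between 22.9 and 160.4 in wild-type cells with a median of 89.6. Those numbered 9 to 23 had a median of 924.1 and those numbered 25 to 44 a median of 304.9, but 413.2 and 395.7 with identical copies counted once. Counted once, the same medians were 527.9 and 445.2 in 5-LOΔ cells. With LPS they were 357.1 and 315.3 in wild-type cells and 527.6 and 429.8 in 5-LOΔ cells, so these ranges differed far less when counted once. For the 39 copies with a position, the numbers follow the order along the chromosome. Copies with the whole HTR2C stretch had a median of 281.3 in wild-type cells (350.3 with identical copies counted once) and reached 1452. The 12 copies without it that had a wild-type mean had a median of 172.2 (142.5 counted once) but ran from 6.30 to 2917, so that the highest levels and the lowest belonged to copies without the whole stretch. Copies without it held 50.8% of the summed level in wild-type cells and 53.5% in 5-LOΔ cells, but 39.3% and 42.2% with identical copies counted once, when most of the level lay in copies with the stretch.

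**Figure D2:**
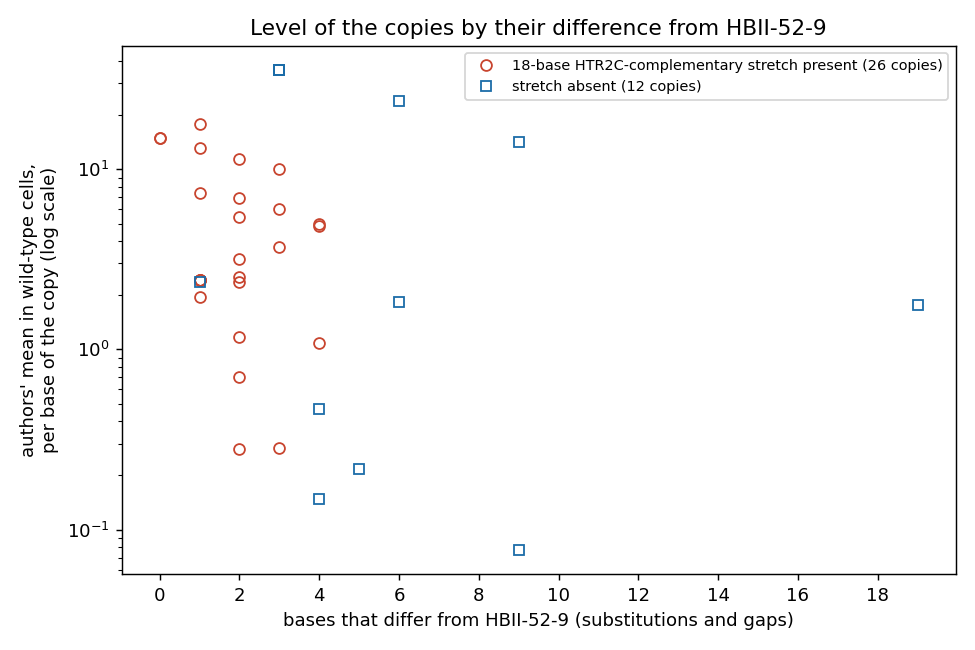
The authors' mean per base in wild-type cells on a log axis against the number of bases by which a copy differs from HBII-52-9, for the 38 copies with a sequence and a wild-type mean. Circles are the 26 copies with the whole 18-base stretch and squares the 12 without it, which include both the highest and the lowest levels.

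Without LPS, 39 of 40 copies were higher in 5-LOΔ than in wild-type cells, or 37 of 40 when the columns were scaled to equal sums, which moves every log2 ratio by -0.17. The summed level was 1.48 times that of wild-type cells, a log2 ratio of 0.57 with a counting half-width of at most 0.07, and the median log2 ratio over the copies was 0.49. Counting intervals lay above 0 for 36 copies, against 29.6% of 914 noncoding RNAs above 0 in both groups, and below 0 for 1 copy, against 29.0%. With identical copies counted once, 33 of 34 distinct values were higher in 5-LOΔ cells, and 30 had intervals above 0 and 1 below. Interval counts of the ratios within a table were not recalculated under equal sums, which lowers every interval too. The lower limits of HBII-52-30 and HBII-52-34, for example, were 0.05 and 0.1 without LPS, less than the size of that shift. None of the copies was 2-fold higher in 5-LOΔ cells, where 7.33% of the 914 were. HBII-52-37 was the single copy at least 2-fold lower, where 10.4% were. Such changes were rarer among the 242 other snoRNAs above 0 in both groups, of which 7 were at least 2-fold higher and 5 at least 2-fold lower. The 914 RNAs themselves had a median log2 ratio of -0.01.

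With LPS, all 40 copies above 0 in both groups were higher in 5-LOΔ cells, also under each of the other scalings. The summed level was 1.46 times that of wild-type cells, a log2 ratio of 0.55 with a counting half-width of at most 0.08, and the median log2 ratio was 0.54. Counting intervals lay above 0 for 35 copies, against 31.5% of 883 noncoding RNAs, and below 0 for 0 copies, against 31.4%. With identical copies counted once, all 34 distinct values above 0 in both groups were higher in 5-LOΔ cells, and 29 had intervals above 0. No copy was past 2-fold in either direction, where 6.91% of the 883 were at least 2-fold higher and 11.2% at least 2-fold lower. Of the 245 other snoRNAs above 0 in both groups, 5 were at least 2-fold higher and 3 at least 2-fold lower. The median log2 ratio of the 883 was -0.03.

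**Figure D3:**
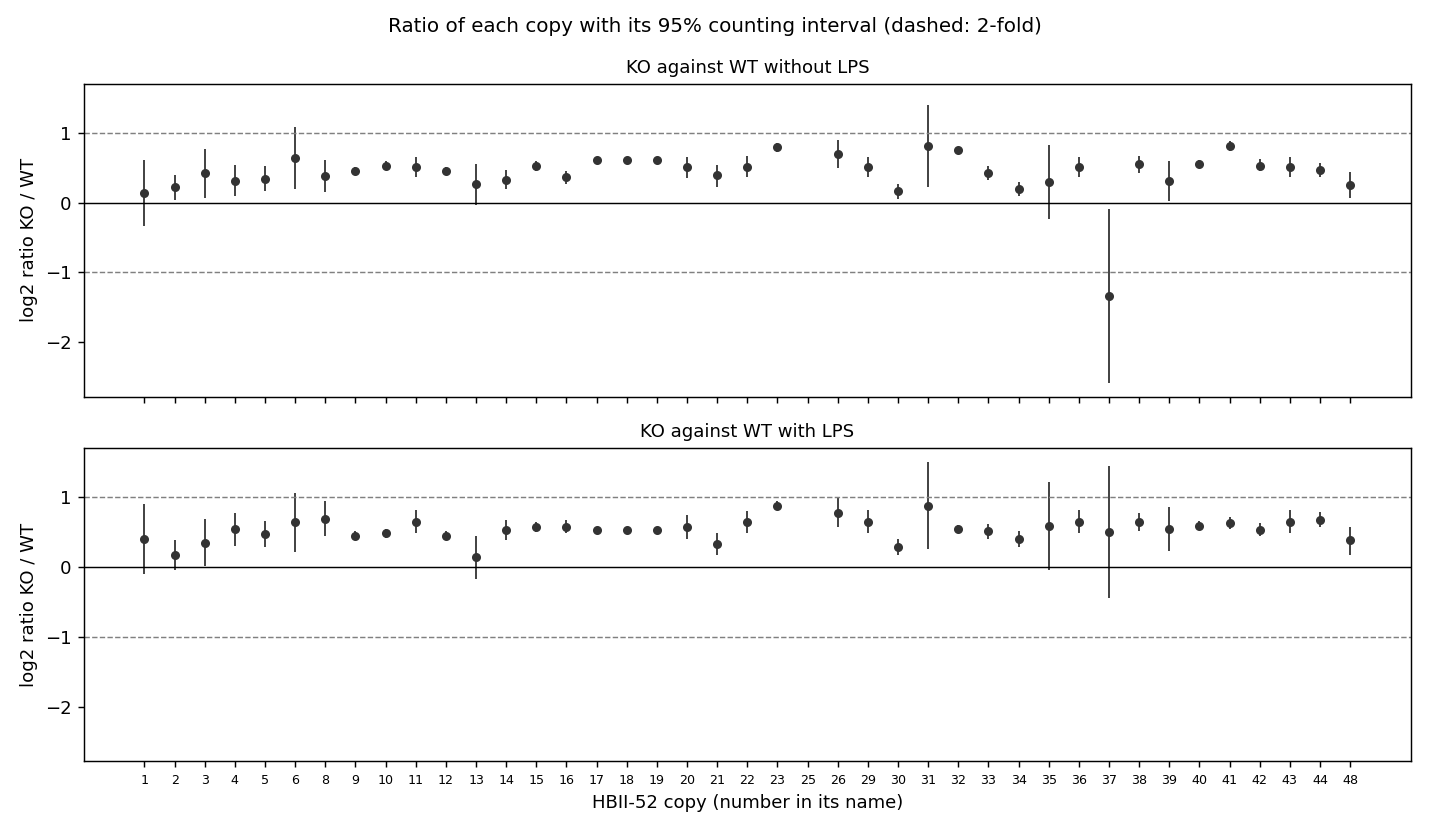
Log2 ratio of 5-LOΔ (KO) to wild-type (WT) means for each copy, without LPS (top) and with LPS (bottom), with 95% counting intervals as bars and dashed lines at 2-fold. All copies but HBII-52-37 are above 0 without LPS (37 of 40 with columns scaled to equal sums), and all 40 are above 0 with LPS.

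HBII-52-31, HBII-52-41 and HBII-52-23 had the largest ratios without LPS. HBII-52-31 had means of 12.2 in wild-type and 21.3 in 5-LOΔ cells, and 11.1 and 20.3 with LPS, with log2 ratios of 0.81 (0.22 to 1.40) and 0.88 (0.26 to 1.50). HBII-52-41 had 824.8 and 1444 without LPS and 704.0 and 1087 with LPS, with log2 ratios of 0.81 (0.74 to 0.88) and 0.63 (0.55 to 0.71). These are a low copy with a wide interval and a high copy with a narrow one. HBII-52-23, which shares no more than 24 bases in a row with any of the other copies that have a sequence, had 1163 and 2011 without LPS and 985.5 and 1813 with LPS, with log2 ratios of 0.79 (0.73 to 0.85) and 0.88 (0.81 to 0.94). HBII-52-26 completed the 3 largest with LPS, where its log2 ratio was 0.78 (0.57 to 0.99) from means of 102.4 and 175.9. Without LPS it had 116.1 and 188.2, a log2 ratio of 0.70. For the highest copies, the log2 ratios without and with LPS were 0.61 and 0.53 for HBII-52-17, 0.75 and 0.55 for HBII-52-32, and 0.53 and 0.48 for HBII-52-10.

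At the other end, HBII-52-37 was lower in 5-LOΔ cells without LPS, with means of 6.30 and 2.49 and a log2 ratio of -1.34 (-2.58 to -0.09). Its reads could be recovered as 12, 6 and 3 in the wild-type libraries and as 10, 0 and 0 in the 5-LOΔ libraries, all 10 in the deepest library. Scaled to a common depth these are 9.60, 5.91 and 3.40 against 7.48, 0 and 0, so the libraries of both groups overlap. With LPS the copy had 12, 6 and 2 reads in wild-type and 13, 7 and 3 in 5-LOΔ libraries, means of 5.19 and 7.36 and a log2 ratio of 0.50 (-0.45 to 1.45).

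HBII-52-1 and HBII-52-30 were next lowest without LPS. HBII-52-1 had means of 23.2 and 25.5 without LPS and 19.5 and 25.6 with LPS, and its log2 ratio without LPS was 0.14 (-0.33 to 0.61). HBII-52-30 had 395.7 and 441.9 without LPS and 362.9 and 442.2 with LPS, with log2 ratios of 0.16 (0.05 to 0.27) and 0.28 (0.17 to 0.40). Its interval without LPS lies under the median of the copies. HBII-52-30 was named for its small ratio, and that median has no interval, so whether the copies differ in ratio was not tested. With LPS the smallest were HBII-52-13, at 0.14 (-0.17 to 0.45), and HBII-52-2, at 0.17 (-0.04 to 0.38), followed by HBII-52-30. HBII-52-13 had means of 56.5 and 68.1 without LPS and 53.6 and 59.1 with LPS, and HBII-52-2 had 150.4 and 175.4, then 120.9 and 136.2.

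HBII-52-25 was listed in the table with LPS only, at 0.501 in wild-type cells, which is 1 read in 1 library, and at 0 in 5-LOΔ cells. It is also the copy without a box C match in its first 20 bases, and it carries G9T. At this depth no difference of this copy was detectable.

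Of the 40 copies above 0 in all groups, 39 were higher in 5-LOΔ cells in both tables (37 under equal sums without LPS). The ratio was larger with LPS for 28 copies and smaller for 12, with a median difference of 0.09 in log2, or larger for 37 and smaller for 3, with a median of 0.19, when the columns of each table were scaled to equal sums. Over 844 noncoding RNAs above 0 in all groups, 47.0% had a larger ratio with LPS and the median difference was -0.03, or 58.4% and 0.07 under equal sums. The counting interval of this difference lay above 0 for 5 copies, against 18.7% of the 844, and below 0 for 5, against 25.4%. Of the 5 below 0, HBII-52-17, HBII-52-18 and HBII-52-19 hold the same value, so that 3 distinct values lay there. Under equal sums these numbers of copies were 20, against 26.7%, and 1, against 17.4%, so the comparison of the ratios between the tables depends on the scaling. With identical copies counted once, 16 of 34 distinct values lay above 0 under equal sums and 1 below. The ratio was then larger with LPS for 25 and smaller for 9 as deposited, or 31 and 3 under equal sums. Relative to the summed level of the other snoRNAs in the same column, the summed HBII-52 level with LPS against without LPS was -0.03 in log2 in wild-type and 0.03 in 5-LOΔ cells. The median over the copies on this scale was -0.03 in wild-type cells, with 14 of 40 above 0, and 0.14 in 5-LOΔ cells, with 33 of 40 above 0. No such median or count was calculated for the other snoRNAs or for all noncoding RNAs. These counts therefore do not show a change with LPS that is particular to HBII-52. The copies made up 0.353% of the summed snoRNA level in wild-type and 0.502% in 5-LOΔ cells, and 0.345% and 0.511% with LPS. With identical copies counted once, these shares were 0.243%, 0.344%, 0.237% and 0.354%.

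HBII-85 comes from the same host transcript. Of its 24 copies, 12 were higher and 12 lower in 5-LOΔ cells without LPS, with a median log2 ratio of 0.0, or 8 higher and 16 lower with columns scaled to equal sums. With LPS 2 were higher and 22 lower, with a median of -0.32, or 7 and 17 with the median ratio of the other snoRNAs set to 1. The sum of HBII-52 relative to the sum of HBII-85 was higher in 5-LOΔ cells by 0.53 in log2 without LPS and by 0.79 with LPS, whatever the scaling of the columns. In these values HBII-85-3 and HBII-85-9, which had equal means in every group, were both counted, as were HBII-85-5 and HBII-85-7. Of 5 single snoRNAs of the 15q11-q13 region, HBII-13, HBII-438A and HBII-438B were listed. Their log2 ratios were 0.08, -0.23 and -0.23 without LPS, with HBII-13 also below 0 under equal sums, and -0.46, -0.32 and -0.32 with LPS. From the imprinted 14q32 region only 14q(II-11) was listed, at 1.50 in wild-type cells with LPS and 0 in 5-LOΔ cells. The snoRNAs other than HBII-52 had a median log2 ratio of 0.0 without LPS, with 49.2% of 242 higher in 5-LOΔ cells, and of -0.06 with LPS, with 42.0% of 245 higher. Whether HBII-52 differs from these lists beyond the spread between libraries was not tested, since the columns hold no spread.

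**Figure D4:**
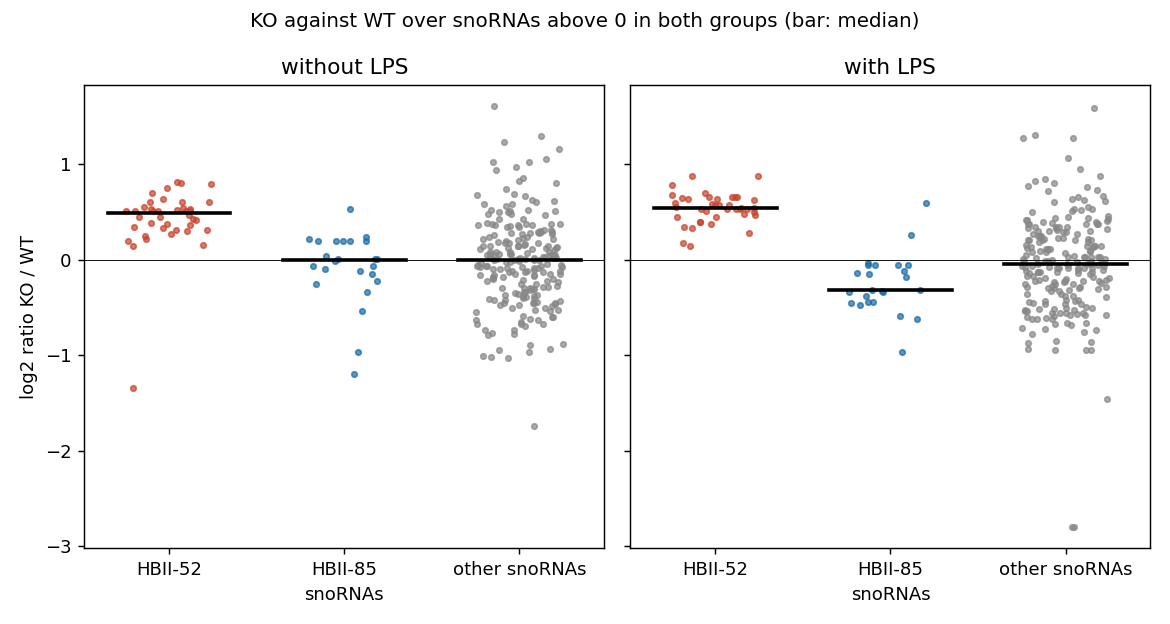
Log2 ratio of 5-LOΔ (KO) to wild-type (WT) means without LPS (left) and with LPS (right) for HBII-52 copies, HBII-85 copies and all other snoRNAs above 0 in both groups, with 1 point for each snoRNA and a bar at the median. HBII-52 has medians of 0.49 and 0.54, HBII-85 of 0.0 and -0.32, and under equal sums 37 of 40 HBII-52 copies are above 0 without LPS.

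Outside the family, 3 snoRNAs had the pair of ratios nearest to that of the HBII-52 sum, by straight-line distance over both log2 ratios, among 234 with every mean at 10 or more. U71c had log2 ratios of 0.58 and 0.61, U42A of 0.48 and 0.55 and U19 of 0.60 and 0.67. U42A was an abundant snoRNA, with 213451 in wild-type and 297725 in 5-LOΔ cells, while U71c and U19 had wild-type means of 35.2 and 43.8.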

How the data were processed

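The 12 samples were grouped from their labels. In the signal columns the authors deposited means of normalized read counts over the 3 libraries of a genotype, made from size-selected small RNA libraries by trimming adapters, annotating reads against hg19 (the submitters' processing notes) and normalizing with omiRas. For the version, the aligner and the treatment of reads matching several copies, nothing was given in the sources used here. The tables also hold the authors' log2 fold changes, p-values and false discovery rates, which were not used.

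Log2 ratios were taken within a table. Low means were resolved into whole reads per library where exactly 1 combination of 3 read values gave them. The recovered size factors were 1.25, 1.02 and 0.883 in wild-type and 1.34, 0.945 and 0.725 in 5-LOΔ libraries, then 1.72, 1.07 and 0.665, and 1.30, 0.835 and 0.812 with LPS. These values cannot be matched to the replicate numbers in the labels. Of means up to 10, 378 of 378, 436 of 439, 361 of 361 and 352 of 352 were resolved. Counting intervals follow from these values. The steps were tested on simulated data.

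Sequences are from GRCh37 with GENCODE annotation. Names were matched through RefSeq synonyms. Named copies were the 5 highest by mean, the 3 largest and 3 smallest ratios in each table, and those listed in 1 table. HBII-52-9, HBII-52-48 and the sets of identical copies were named for their sequence, after their values were seen. Members and lists were chosen with earlier results of these data known. Alternatives were other scalings, pseudocounts of 0.1 and 1, a minimum mean of 1, the highest copy, and identical copies counted once. Python 3.11.15, numpy 2.4.6, pandas 2.3.3, Biopython 1.88 and matplotlib 3.10.9 were used.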

Additional observations from a re-analysis of the deposited data

How the results depend on the processing

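No paired analysis was possible because the columns are means over libraries and carry no replicate numbers. Without LPS, scaling both columns to equal sums over all noncoding RNAs lowered the log2 ratio of the summed HBII-52 level from 0.57 to 0.39 and the median over copies from 0.49 to 0.31, by the construction of the scaling, and both stayed above 0. The median over copies has no counting interval of its own here. Without LPS it was 0.43 under equal sums of the other snoRNAs and 0.44 with identical copies counted once. With LPS it moved from 0.54 to 0.47 under equal sums of all noncoding RNAs, 0.56 under equal sums of the other snoRNAs, 0.60 with their median ratio set to 1 and 0.53 with a pseudocount of 1. In the other 24 recalculations of the summed level, the median and the number of copies past 2-fold, the median or count was the same or the sum moved by less than the largest half-width its counting error allows. Summed log2 ratios ran from 0.39 to 0.57 without LPS and from 0.48 to 0.60 with LPS, and the highest copy alone gave 0.61 and 0.53. Some recalculations were added after seeing the data. They counted identical copies once in the median, in numbers of copies, and in the shares and medians by stretch and copy number. They also scaled the difference between the tables and left out libraries for HBII-52-37. The median difference between the tables was 0.09 as deposited, and 0.19, 0.17 and 0.14 under equal sums of all noncoding RNAs, equal sums of the other snoRNAs and their median ratio set to 1. Without 1 library at a time the log2 ratio of HBII-52-37 ran from -1.64 to -0.75 without LPS and from 0.22 to 0.82 with LPS. Without the 5-LOΔ library that held all 10 of its reads the copy would be at 0, so its lower value without LPS and its place past 2-fold rest on few reads. Leaving out libraries for the summed level was not run, since the reads of most copies could not be recovered. Depth limits the lowest copies, for which counting intervals are wide.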
